A study of Homo sapiens with 4 samples.

Results

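The lysosome digests what a cell takes up and what it discards. Its interior is kept acid by the vacuolar proton pump (V-ATPase), and its soluble hydrolases cut proteins, sugar chains and lipids at that acid pH. The 7 genes described here are the 4 proton pump genes ATP6AP1, ATP6V0A1, ATP6V0D1 and ATP6V1B2 and the 3 hydrolase genes CTSD, GUSB and FUCA1. They were taken by name as rows of the deposited expression table, which holds 1648 genes. Apart from 3 rows, none of them among the 7, the table lists genes with an adjusted p under 0.01 in the authors' test, so being listed is a condition of the choice and not a finding. By that adjusted p alone 1645 of 12265 genes tested were called (13.4%), of which 1016 were higher upon ATRA induction (8.28% of the genes tested) and 629 were lower (5.13%). The study's methods also set a limit on the log2 fold change, which was not applied to these counts. On the restored means each of the 1645 genes lay beyond it, so the counts would be the same. Where the paper splits its differentially expressed genes by direction it reports fewer in each, while a total that it gives elsewhere lies close to 1645 of 12265. The smallest change among the 1645 was 0.91 in absolute log2 ratio of the restored means.

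HL-60 is a human myeloid leukaemia cell line that can be driven to mature into granulocyte-like cells. The ATRA-treated cells received 1 µM all-trans retinoic acid (ATRA), a ligand of the retinoic acid receptors, for 4 days, and control cells were given ethanol, its solvent. Fresh medium with compound was supplied on day 2. Polyadenylated RNA of this single line was sequenced, with 2 samples per group. Whether they came from separate cultures is not stated, so every p-value below measures only the spread between these libraries. The values below are normalised read counts, which are reads divided by a size factor of the library. The libraries of each group are called a and b, and a is the one with the larger size factor. The letters are not tied to the replicate numbers of the labels, and library a of one group has no link to library a of the other.

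The proton pump has a membrane sector, V0, through which protons pass, and a soluble sector, V1, which splits ATP to drive them. Both sectors must join for the pump to work. Hydrolases are made as precursors and carried to the lysosome, where acid activates many of them. Many lysosomal genes carry an E-box with the letters TCACGTGA near their start of transcription, a sequence bound by TFEB and TFE3, transcription factors that control lysosome formation. In myeloid cells lysosomal enzymes serve the digestion of ingested particles, and some are stored in granules.

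The promoters of ATP6V0D1 and CTSD are shown because they were the ones, among the 6 genes of the 7 with a promoter in the RefSeq table, that held this E-box core. Capitals mark the longest match to the letters searched. The windows run 250 bases before to 50 bases after the start of transcription given by RefSeq (GRCh38.p14), 5′ to 3′ on the gene's strand, and each matched GRCh37 exactly at 1 place, chr16:67515011-67515310 for ATP6V0D1 and chr11:1785108-1785407 for CTSD, both on the minus strand.
ATP6V0D1: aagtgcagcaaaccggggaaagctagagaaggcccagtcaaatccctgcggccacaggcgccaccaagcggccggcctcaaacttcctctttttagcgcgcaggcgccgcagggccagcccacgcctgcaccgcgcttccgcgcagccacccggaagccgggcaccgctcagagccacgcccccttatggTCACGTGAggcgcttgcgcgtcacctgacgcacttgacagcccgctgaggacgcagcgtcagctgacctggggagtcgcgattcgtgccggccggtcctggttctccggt
CTSD: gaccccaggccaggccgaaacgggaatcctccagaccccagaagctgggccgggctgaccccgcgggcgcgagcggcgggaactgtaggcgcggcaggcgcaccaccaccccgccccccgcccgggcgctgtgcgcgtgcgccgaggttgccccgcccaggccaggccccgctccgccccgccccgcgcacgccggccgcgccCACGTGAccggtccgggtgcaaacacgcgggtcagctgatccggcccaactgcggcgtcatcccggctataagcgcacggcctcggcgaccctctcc

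The match of ATP6V0D1 began 60 bases before the start of transcription and held the full TCACGTGA. The match of CTSD began 47 bases before it and read CACGTGA, which is TCACGTG on the other strand, so the last letter of the full form was not there. Searched on both strands with no mismatch, CACGTG occurred in 8.77% of the 27305 genes with a promoter, TCACGTG in 4.49% and TCACGTGA in 1.18%. The shorter letters lie within the longer ones, so the counts overlap. In the promoters of ATP6AP1, ATP6V0A1, GUSB and FUCA1 none of these letters occurred within the 300 bases. A match is a description of the sequence, and no binding was measured.

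Upon ATRA induction, all 4 proton pump genes rose, by 1.95-fold to 2.60-fold. All 3 hydrolase genes rose as well, GUSB by 3.31-fold, FUCA1 by 8.80-fold and CTSD by 20.1-fold. In each of the 7 genes both ATRA libraries lay above both control libraries. In every row of the table, higher or lower, the groups did not overlap. All 7 also passed an adjusted p of 0.01 by limma, fitted to log2(normalised count + 1) over all 1648 rows with Benjamini-Hochberg adjustment. Of all rows 98.6% passed it, because the rows had already been selected by the authors' test of these same libraries, so these p-values are no independent test. limma draws each gene's variance towards a value shared by all rows, so its SEs, intervals and p-values do not rest on that gene alone. For a single gene with 2 libraries against 2, the smallest two-sided p of an exact permutation test is 0.3333. In a bulk sample, a change in the share of cells of a type and a change in RNA per cell cannot be told apart.

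**Figure D1:**
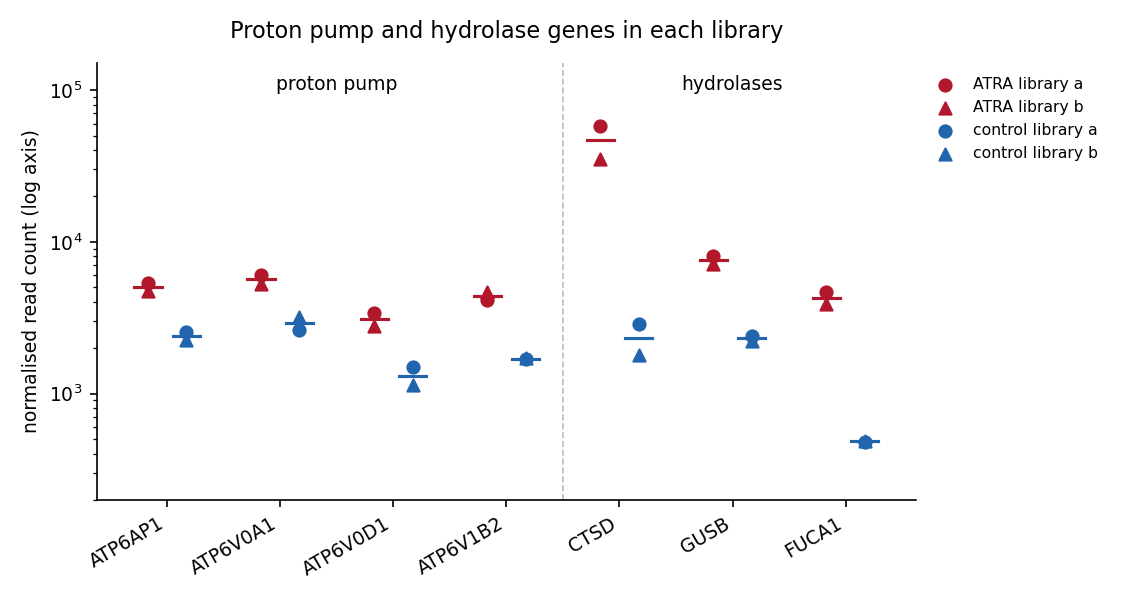
Normalised read counts (log axis) of the 4 proton pump genes and the 3 hydrolase genes in each library, with ATRA libraries (red) left of control libraries (blue), circles for library a and triangles for library b, and a short line at the mean of each group. Both ATRA points lie above both control points for every gene, and the distance is widest for CTSD, with 58067 and 35303 against 2859 and 1786.

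ATP6V0A1 (chr17:40610862-40674600, plus strand, GRCh37) encodes an a subunit of V0, the part that forms the proton path with the membrane ring. It had 6017 and 5297 normalised reads in the ATRA libraries, against 2608 and 3197 in the control libraries. The lowest ATRA library stood 1.66 times above the highest control library, the narrowest gap of the 7 genes. The means were 5657 ± 509 in ATRA-treated cells and 2902 ± 416 in control cells (SD, n = 2 each). The log2 fold change was 0.97 ± 0.23 (SE), with a 95% interval of 0.40 to 1.53 (limma, adjusted p = 0.00636).

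ATP6AP1 (chrX:153656979-153664862, plus strand) encodes an accessory subunit of the pump, needed for its assembly and its transport to the right membranes. It had 5313 and 4708 normalised reads in the ATRA libraries, against 2560 and 2241 in the control libraries. The groups were 1.84 times apart at their nearest values. ATP6AP1 averaged 5011 ± 428 in ATRA-treated cells and 2401 ± 225 in control cells (SD, n = 2 each), a 2.09-fold difference. On the log2 scale the change was 1.06 ± 0.22 (SE; limma, adjusted p = 0.00387).

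ATP6V0D1 (chr16:67471917-67515084, minus strand), whose promoter is printed above, encodes the d subunit that joins the membrane sector to the central stalk of V1. Its normalised counts were 3405 and 2789 in the ATRA libraries, against 1486 and 1130 in the control libraries. In both groups library a was the higher one. The mean was 3097 ± 435 in ATRA-treated cells and 1308 ± 252 in control cells (SD, n = 2 each), 2.37-fold higher with ATRA. The log2 fold change was 1.25 ± 0.25 (SE; limma, adjusted p = 0.00349).

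ATP6V1B2 (chr8:20054892-20084330, plus strand) encodes the B subunit form found in most cells, which together with the A subunit builds the ATP-splitting head of V1. It had 4161 and 4653 normalised reads in the ATRA libraries, against 1680 and 1705 in the control libraries. The control libraries lay close together, and the lowest ATRA library was 2.44 times the highest of them. Group means were 4407 ± 348 in ATRA-treated cells and 1693 ± 17.6 in control cells (SD, n = 2 each), a 2.60-fold difference. The log2 fold change of 1.38 ± 0.21 (SE) was the highest of the 4 pump genes (limma, adjusted p = 0.00140), although its 95% interval overlapped those of the other 3.

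CTSD (chr11:1773982-1785803, minus strand) encodes cathepsin D, an aspartic protease that is among the main protein-cutting enzymes of lysosomes. The ATRA libraries had 58067 and 35303 normalised reads, against 2859 and 1786 in the control libraries. The libraries of a group lay 1.64 times apart with ATRA and 1.60 times apart in control cells, and the lowest ATRA library was still 12.3 times above the highest control library. CTSD averaged 46685 ± 16096 in ATRA-treated cells and 2322 ± 759 in control cells (SD, n = 2 each). The log2 fold change was 4.32 ± 0.36 (SE), with a 95% interval of 3.45 to 5.20 (limma, adjusted p = 0.000153). CTSD shares exon bases with other annotated transcripts. A protein-coding read-through gene without a symbol (ENSG00000250644) on the same strand covers 22.9% of its 5697 exon bases, and the lncRNA PRADX on the other strand covers 23.4%. It is not stated whether counting used strand, so reads of these transcripts cannot be told apart from those of CTSD there.

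FUCA1 (chr1:24171567-24194780, minus strand) encodes the lysosomal α-L-fucosidase, which removes fucose from the sugar chains of glycoproteins and glycolipids. It had 4636 and 3897 normalised reads in the ATRA libraries, against 480 and 489 in the control libraries. The control libraries were nearly equal, and the gap between the groups was 7.96-fold. The mean was 4266 ± 522 in ATRA-treated cells and 485 ± 6.40 in control cells (SD, n = 2 each). The log2 fold change was 3.13 ± 0.22 (SE), with a 95% interval of 2.59 to 3.67 (limma, adjusted p = 8.90e-05).

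GUSB (chr7:65425671-65447202, minus strand) encodes β-glucuronidase, which takes glucuronic acid off glycosaminoglycan chains and is often used as a reference gene in PCR assays. It had 8070 and 7190 normalised reads in the ATRA libraries, against 2410 and 2207 in the control libraries, so that no library of one group came near the other. GUSB averaged 7630 ± 623 in ATRA-treated cells and 2308 ± 143 in control cells (SD, n = 2 each). The log2 fold change was 1.72 ± 0.21 (SE; limma, adjusted p = 0.000684). The genome holds near copies of this gene, and 21 genes are named GUSBP in the annotation (GENCODE 44 on GRCh37). Reads that fit both GUSB and a copy may have been divided between them in counting, which makes the level of GUSB uncertain.

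One of these copies, the lncRNA gene GUSBP11 (chr22:23980674-24059543, minus strand), was itself in the table. GUSBP11 had 2591 and 2172 normalised reads in the ATRA libraries, against 836 and 965 in the control libraries, 2.64-fold higher with ATRA (limma, adjusted p = 0.00171). Within a library, the count of GUSB was 3.11 and 3.31 times that of GUSBP11 in the ATRA libraries, against 2.88 and 2.29 times in the control libraries. How many of the GUSBP11 reads came from GUSB was not tested.

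**Figure D2:**
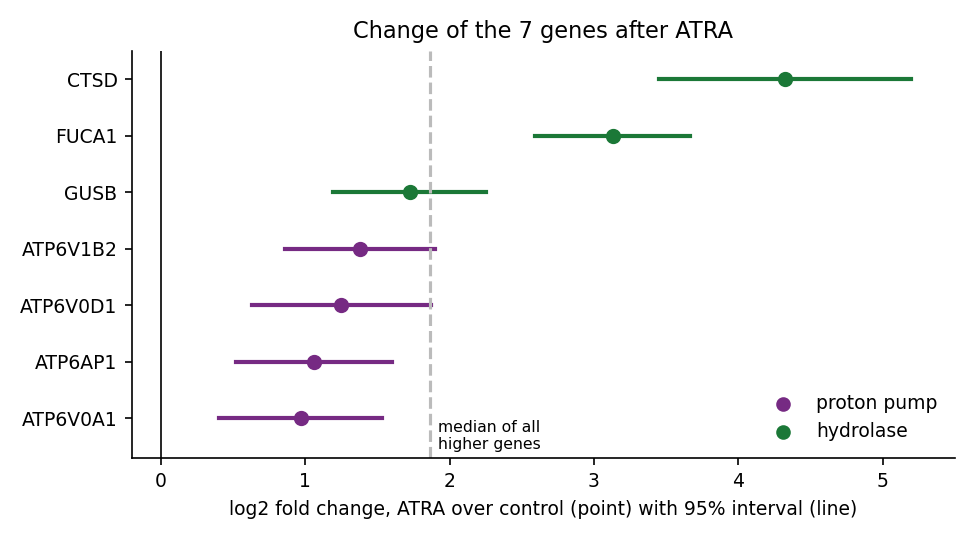
log2 fold change, ATRA over control, of the 7 genes (points; purple for the proton pump, green for hydrolases) with the 95% interval of the limma fit (lines); the dashed line is the median log2 ratio of all 1016 higher genes, 1.87. The 4 pump genes lie between 0.97 and 1.38, below that median, GUSB lies at 1.72, and FUCA1 at 3.13 and CTSD at 4.32 lie above it.

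Ordered by change, the genes ran ATP6V0A1, ATP6AP1, ATP6V0D1, ATP6V1B2, GUSB, FUCA1 and CTSD. Neighbours among the first 5 differed by less than 2 times the combined SE, and no pair of pump genes was further apart than that. The combined SE treats the genes of a pair as independent, although both were measured in the same libraries. It and the overlap of intervals are therefore only a rough guide to the order, and no paired test of the differences was run. GUSB exceeded ATP6V0A1 by 0.76 (combined SE 0.31) and ATP6AP1 by 0.66 (combined SE 0.31), although their 95% intervals overlapped. The step between GUSB and FUCA1 was 1.41 on the log2 scale (combined SE 0.31) and their intervals did not overlap. CTSD exceeded FUCA1 by 1.19 (combined SE 0.42), which is over 2 times the combined SE, but their 95% intervals overlapped. Among the 1016 higher genes of the table, ranked by the ratio of group means, CTSD stood at place 165 and FUCA1 at place 270. GUSB came at place 557. The pump genes stood lower, with ATP6V1B2 at place 731, ATP6V0D1 at 815, ATP6AP1 at 928 and ATP6V0A1 at 1002. The median log2 ratio was 1.15 over the 4 pump genes and 3.14 over the 3 hydrolases, against 1.87 over all higher genes. The size of the change depended on how libraries were scaled, since scaling to the same total over the listed genes lowered the median of all rows by 0.44 on the log2 scale. Under it the 7 genes all stayed higher in ATRA-treated cells, but ATP6AP1, ATP6V0A1 and ATP6V0D1 no longer passed the threshold. Of all rows 81.5% still passed it under that scaling.

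The proportion of the hydrolases to one another changed within the libraries. The count of CTSD was 7.20 and 4.91 times that of GUSB in the ATRA libraries, against 1.19 and 0.81 times in the control libraries. CTSD was 12.5 and 9.06 times FUCA1 in the ATRA libraries, against 5.95 and 3.65 times in the control libraries. These ratios are not corrected for gene length, and only their change between libraries can be read.

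**Figure D3:**
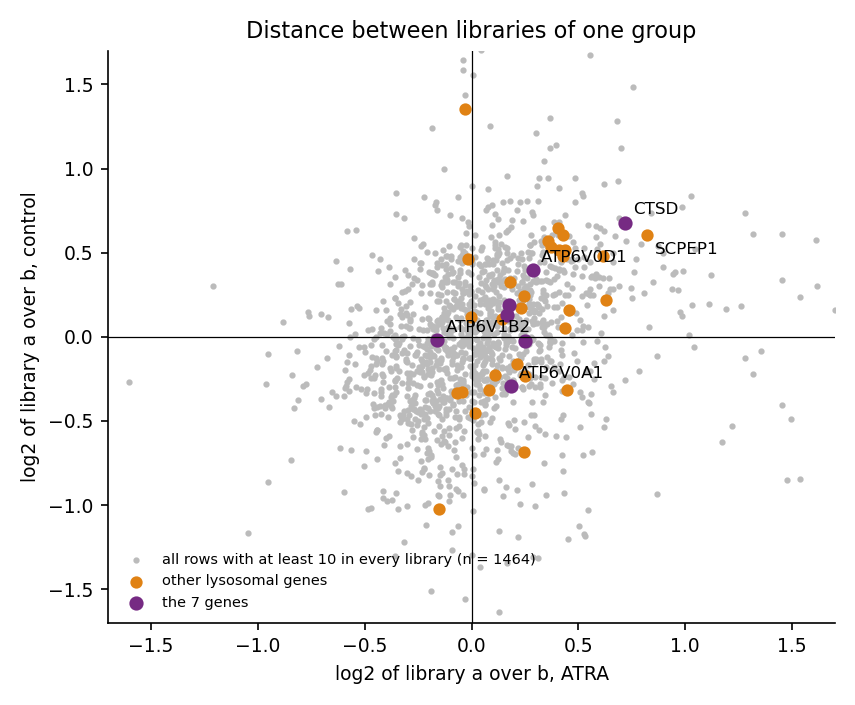
log2 of library a over library b in ATRA-treated cells (x axis) and in control cells (y axis), for the 7 genes (purple), the other lysosomal genes of the table (orange) and all 1464 rows with a normalised count of at least 10 in every library (grey; 8 of them lie outside the axes). CTSD and SCPEP1 lie at the upper right, since library a was the higher one of both groups for these genes.

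CTSD was the gene of the 7 whose libraries differed most. Its log2 distance between library a and library b was 0.72 with ATRA and 0.68 in control cells. Of the 7 genes, 6 were higher in library a than in library b with ATRA, against 62.2% of all higher genes in the table. In control cells 4 of the 7 were so, against 43.4% of all higher genes. Among the lysosomal genes of the table, GAA, SCPEP1 and SMPD1 were also over 1.5 times apart with ATRA, each with library a higher. SCPEP1, a serine carboxypeptidase, had 9596 and 5432 normalised reads in the ATRA libraries, against 631 and 415 in the control libraries.

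To place the 7 genes among other lysosomal genes, 188 genes were listed by function, covering the pump and its assembly factors, hydrolases, lysosomal membrane proteins, enzyme sorting, regulators and autophagy. The table held 36 of them, among which the 7 stood by the choice made here. Of the 181 listed genes other than the 7, 29 were in the table (16.0% of the lists), each higher with ATRA, where 8.28% of all genes tested were higher. How many of the 181 were tested is not known. Of the 29, 28 passed an adjusted p of 0.01 by limma. The exception was PSAP, a precursor of proteins that help degrade sphingolipids, with a 2.00-fold difference (adjusted p = 0.0124). Across these 29 genes the log2 ratio ran between 1.00 and 3.85 with a median of 1.55, against 1.87 over all higher genes. A listed gene outside the table either missed the authors' limit or was not tested by them, so nothing is said of the other 152 genes. The lists were drawn up with earlier results of these data known.

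**Figure D4:**
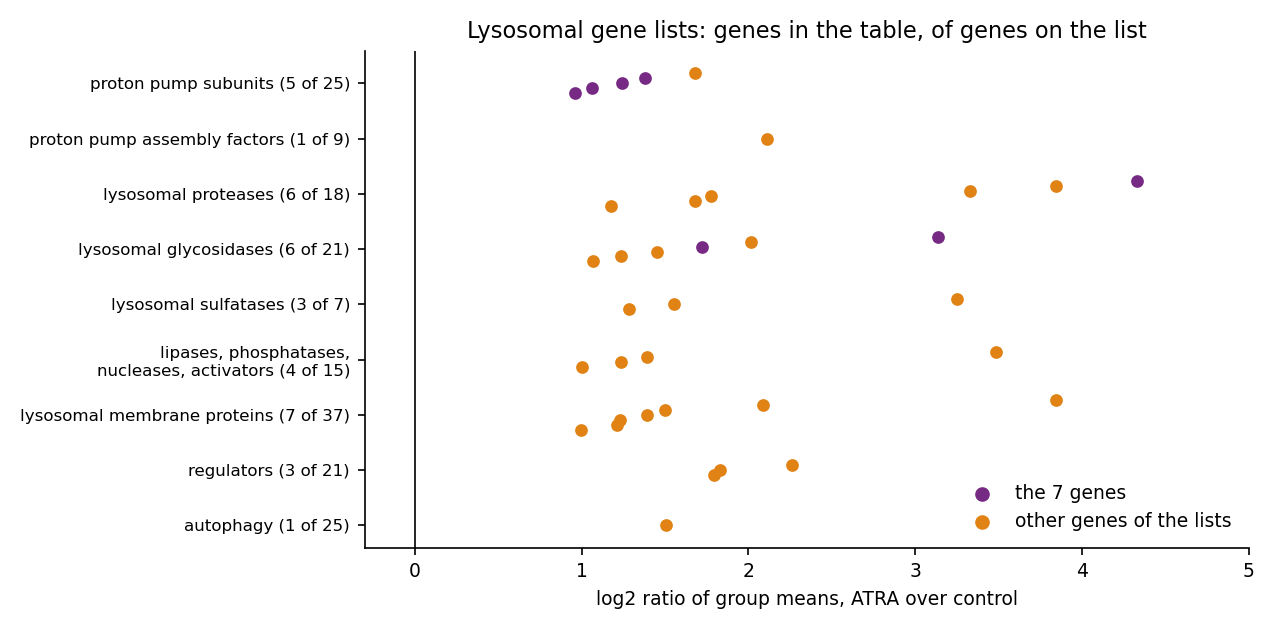
log2 ratio of group means, ATRA over control, for each gene of the lysosomal lists that was in the table (purple for the 7 genes, orange for the others), with the number in the table and the number on the list beside each name; the list of sorting genes had 0 of 10 and is not drawn. Every point lies to the right of 0, and the ratios run between 0.96 for ATP6V0A1 and 4.33 for CTSD.

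Of 25 genes for pump subunits, 5 were in the table, the 4 described above and TCIRG1, which encodes the a3 subunit known from the acid-secreting membrane of osteoclasts. TCIRG1 had 20503 and 15127 normalised reads in the ATRA libraries, against 6548 and 4580 in the control libraries (3.20-fold; limma, adjusted p = 0.00199). ATP6V0A1 and TCIRG1 encode alternative forms of the same subunit. Of 9 assembly factors ROGDI was in the table, 4.32-fold higher with ATRA.

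Among 18 lysosomal proteases, 6 were in the table and higher, CTSD among them by the choice made here. Of all genes tested 8.28% were higher, and how many genes of each list were tested is not known. SCPEP1 was 14.4-fold higher with ATRA. LGMN, an asparagine-specific endopeptidase, was 10.0-fold higher, with 61.0 and 67.8 normalised reads in the ATRA libraries, against 3.89 and 8.94 in the control libraries, where they rest on 4 and 8 reads. Its log2 fold change was 3.23 with a pseudocount of 1 and 2.35 with a pseudocount of 8. TPP1, a tripeptidyl peptidase, had 10510 and 10525 normalised reads in the ATRA libraries, against 3414 and 3149 in the control libraries. CTSK rose 3.43-fold and PRCP 2.26-fold. Of 21 glycosidases, 6 were in the table and higher, GUSB and FUCA1 by the choice made here. GAA (4.05-fold) and CTBS (2.36-fold) were among the others. GAA breaks down glycogen, and CTBS trims the ends of sugar chains released from glycoproteins.

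Of 7 sulfatases, 3 were in the table and higher. ARSA, which removes sulfate from sulfatide, had 2947 and 2149 normalised reads in the ATRA libraries, against 282 and 253 in the control libraries (9.53-fold). IDS, which acts on glycosaminoglycans as GUSB does, rose 2.93-fold. Of 15 lipases, phosphatases, nucleases and activators, 4 were in the table. SMPD1, the acid sphingomyelinase, was 11.2-fold higher, with 626 and 404 normalised reads in the ATRA libraries, against 49.6 and 42.5 in the control libraries. PLD3 rose 2.63-fold and GM2A 2.35-fold.

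Of 37 lysosomal membrane proteins, 7 were in the table and higher. CD68, a glycoprotein of macrophage lysosomes, had 265 and 270 normalised reads in the ATRA libraries, against 27.2 and 10.1 in the control libraries (14.4-fold). Its control values rest on 28 and 9 reads, and its log2 fold change of 3.93 became 4.60 when control library a was left out and 3.25 when b was. SLC36A1, an amino acid exporter, rose 4.25-fold. HGSNAT, LAPTM5, CLN3, OSTM1 and CD164 rose between 2.00-fold and 2.83-fold. Of 25 autophagy genes, ATG16L2 was in the table (2.84-fold higher with ATRA).

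Of 21 regulators 3 were in the table and higher, among them the E-box-binding factors named above. TFEB had 951 and 801 normalised reads in the ATRA libraries, against 140 and 226 in the control libraries (4.79-fold; limma log2 fold change 2.29 ± 0.30, SE). TFE3 had 2580 and 2666 normalised reads in the ATRA libraries, against 670 and 841 in the control libraries (3.47-fold). FNIP2, a partner of folliculin in nutrient signalling at the lysosome, rose 3.56-fold. RNA levels do not show where these factors are in the cell, on which their activity depends.

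The full TCACGTGA was found in 6 of the 21 other lysosomal genes of the table that had a promoter (28.6%), besides ATP6V0D1. The stretches of 40 bases around the match are shown so that they can be set beside the promoters of ATP6V0D1 and CTSD. They lie in GRCh37 at chr5:150827139-150827178 and chr17:78075287-78075326, chr17:55055448-55055487 and chr19:40854405-40854444 on the plus strand, and at chr6:109703682-109703721 and chr16:28503374-28503413 on the minus strand. Capitals mark the E-box.
SLC36A1: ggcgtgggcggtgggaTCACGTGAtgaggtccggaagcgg
GAA: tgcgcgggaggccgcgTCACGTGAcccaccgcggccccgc
SCPEP1: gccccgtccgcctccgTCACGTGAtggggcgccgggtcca
PLD3: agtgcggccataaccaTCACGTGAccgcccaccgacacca
CD164: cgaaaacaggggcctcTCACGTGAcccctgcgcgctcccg
CLN3: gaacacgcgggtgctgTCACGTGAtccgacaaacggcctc

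Among listed genes that were not in the table the full form was found in 12 of 122 (9.84%), and over all 149 listed genes with a promoter in 19 (12.8%). It occurred in 15 of 754 higher genes (1.99%) and in 3 of 451 lower genes (0.665%) with a promoter, against 1.18% of all 27305. The 15 include ATP6V0D1 and the 6 other lysosomal genes shown above, so this share is not separate from that of the lysosomal lists. The shorter TCACGTG showed a smaller distance, at 22.1% of the listed genes outside the table and 6 of 21 within it. The lysosomal lists thus held the letters more often than all promoters did also where the gene was not in the table. Between higher and lower genes, the direction depended on the letters searched. Unlike the full form, the core CACGTG was rarer in the higher genes, at 9.15%, than in the lower genes, at 19.3%, against 8.77% of all. TCACGTG occurred in 43 of the 754 higher genes and in 22 of the 451 lower genes. No test was run on these shares.

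**Figure D5:**
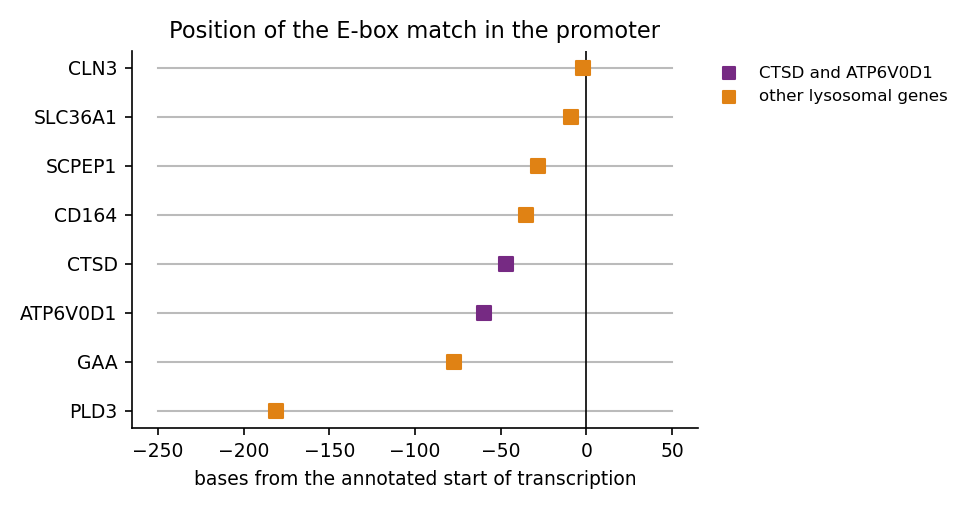
Position of the E-box match, in bases from the start of transcription given by RefSeq, for ATP6V0D1 and CTSD (purple) and for the 6 other lysosomal genes with the full match (orange); grey lines are the 300 bases searched. The matches begin 47 bases before the start in CTSD and 60 before it in ATP6V0D1, and in the others between 2 bases (CLN3) and 181 bases (PLD3) before it.

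For each of the 7 genes, the gene of the table with the most similar profile was sought over the 4 libraries, by the Euclidean distance of log2 values centred on the gene's own mean. The nearest to CTSD was CD300C, an immune receptor of myeloid cells, at a distance of 0.16. CD300C had 2104 and 1303 normalised reads in the ATRA libraries, against 117 and 71.5 in the control libraries. The nearest to FUCA1 was DTX4 (0.082) and the nearest to GUSB was C1GALT1C1 (0.043). For the pump genes they were COL23A1 for ATP6V0A1 (0.024), DEDD2 for ATP6V0D1 (0.026), ZBTB48 for ATP6AP1 (0.051) and AKAP13 for ATP6V1B2 (0.089). The groups do not overlap in any row of the table, so a near profile is a description over 4 libraries only, and none of these neighbours was on the lysosomal lists.

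Some markers of cell types were higher with ATRA, as the 7 genes were, and others were lower. Of 8 genes of granulocyte maturation 7 were listed and higher, with summed normalised counts of 85142 and 84186 in the ATRA libraries, against 2016 and 2225 in the control libraries. Of 10 monocyte and macrophage genes 4 were in the table and higher (CSF1R, CD68, CLEC7A and CD4), with sums of 18236 and 14974 with ATRA, against 5933 and 3548 in control cells. CD4 made up most of these sums, with 16476 and 13547 with ATRA, against 5860 and 3499 in control cells. Of 9 eosinophil, basophil and mast cell genes 3 were lower and PRG2 was above the authors' limit, with sums of 38229 and 10773 with ATRA, against 215034 and 93814 in control cells. PRG2 made up nearly all of these sums, with 37985 and 10604 with ATRA, against 213827 and 91701 in control cells. Of 8 lymphoid genes CD3E was higher and NKG7 lower. None of 8 primary granule genes and none of 8 erythroid and megakaryocyte genes was in the table, so the promyelocytic label of the line could not be checked on its defining markers. The part of these shifts in the change of the 7 genes was not tested. The listed genes held 5576516 and 4940243 reads in the ATRA libraries, against 3799430 and 3288055 in the control libraries, and the 7 genes had between 438 and 63822 reads in a library.

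Fewer of the 7 genes and fewer of all rows passed the threshold when any library was left out, but such a fit also holds fewer samples. Whether the calls rest on a particular library cannot be read from that drop. The limma log2 fold changes of the 7 genes ran between 0.97 and 4.32 with all libraries. They ran between 0.88 and 3.97 without ATRA library a, and between 1.06 and 4.68 without ATRA library b. Without control library a the range was 0.82 to 4.66, and without control library b it was 0.97 to 3.98. All 7 genes were higher in ATRA-treated cells under every one of these settings.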

How the data were processed

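Poly(A) RNA of HL-60 cells was sequenced from 2 ATRA and 2 control samples. As the paper's methods and the submitters' processing notes describe, the authors trimmed reads with cutadapt, removed ribosomal reads with Bowtie, quantified with RSEM 1.2.7 on hg19 (GRCh37) and tested with DESeq2 1.4.5; the strand setting is not given in the sources used here. The one file is the authors' comparison table of 1648 genes, with no column per library. Its 3 mean columns hold a signal deposited by the authors, counts divided by size factors and averaged. The authors' deposited fold (ratio) and log2 fold change columns were not used. The authors' deposited p-value and adjusted p-value columns were read only to find what the table holds: 12265 genes tested, 1645 rows under 0.01 and 3 above it.

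Among 73360 digits of the means there were 0 zeros, and 20.2% were 1, so each digit 0 was taken to read as 1. A group mean is the average of 2 whole counts, each divided by its size factor. The size factors found were 1.10 and 1.00 (ATRA) and 1.03 and 0.895 (control), and exactly 1 pair of whole counts gave back each of the 1648 means in both groups, and the overall mean too. Means with random decimals were matched in 0 of 400 trials per group. The restoring step was tested on simulated data. All per-library values, SDs and tests rest on these restored counts.

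limma 3.58.1 in R 4.3.3 was fitted, without trend, to log2(normalised count + 1) over all rows, with Benjamini-Hochberg adjustment and a threshold of 0.01. Other pseudocounts, a low-value filter, other scalings, a trend and leaving out each library were tried. Genes named were the 7, every listed lysosomal gene in the table except 3 that are counted but not reported singly here, rows named as copies of GUSB and the nearest profile of each of the 7. Marker lists served as a check. The 7 genes and all lists were chosen with earlier results of these data known. Positions are from GENCODE 44 on GRCh37.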

Additional observations from a re-analysis of the deposited data

How the results depend on the processing

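All 7 genes and the other 29 lysosomal genes were higher with ATRA under every alternative run. The number of rows higher with ATRA was 1018 in every fit, so the direction was no separate test of these genes. The number of the 7 genes past an adjusted p of 0.01 was 7 with a pseudocount of 0.5 or 8, with a filter at a mean of 10 (which removed no row) and with a mean-variance trend. It was 4 when libraries were scaled to the total of the listed genes and 4 when scaled to their upper quartile. Of all rows 1343 (81.5%) and 1304 (79.1%) passed under these scalings, against 1625 (98.6%) in the main fit. The other lysosomal genes past the threshold were 28, against 20 under the total scaling and 17 under the upper quartile. These scalings lowered the median log2 ratio of all rows by 0.44 and 0.48, since most listed genes are higher with ATRA. Leaving out 1 library gave between 1 and 6 of the 7 genes, between 2 and 28 of the other lysosomal genes and between 244 and 1482 of all rows, against 1625. The lone library left is then assumed to vary like the other group, and fewer samples enter the fit. No paired analysis was possible because the file has no column per library and the restored libraries are not tied to replicate numbers, so the planned block on replicate number was not run. With 2 libraries a group, the number of libraries limits the precision.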
